A study of Macaca mulatta and Mus musculus and Rattus norvegicus with 12 samples.

Results

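The 9 genes described here encode transcription factors that pattern the head skeleton: ZIC1, ZIC2, ZIC4, FOXC1, FOXC2, TWIST1, TFAP2A, TFAP2B and ALX4. They were taken by name, from the gene symbol at the start of each row's description, out of 75861 symbols printed for any of 3 species. All 9 had a row in mouse and in rat and 8 had one in rhesus macaque, where no row carried the symbol ZIC4. A macaque row named LOC712982 is described as ZIC 4-like, and RefSeq gives its gene ID the symbol ZIC4, so its values are shown under the LOC name. Of the rows, 9 in mouse, 7 in rat and 7 in macaque held at least 1 read.

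The libraries came from bone enriched for osteocytes, the cells enclosed in bone matrix, and were made to compare how the flat bones of the skull vault (calvaria) differ from a long bone of the leg (tibia). In C57BL6 mice of 4 months, calvaria was sampled in M4 and M8 and tibia in M5 and M7, every library being a pool of 3 animals. In Wistar rats of 6 months, calvaria R1 and tibia R3 were each a pool of 2 animals, and with 1 library a site the rat values have no replicate check. In macaques, every library held bone of 1 animal, calvaria in G1, G3 and T1 and tibia in G2, G4 and T2, with an age given as 4 to 6 months in the sample labels and as 4 to 6 years in the methods of the study. No treatment is named, and by the methods all animals were female. Sutures were cut away from the rodent calvariae, while the methods describe the macaque bones as sawn and do not mention their sutures. Skull and tibia were stated to be pairs, but the labels do not name the pairs. Rodent libraries ran on lane 3 and those of macaque on lane 4. Species therefore cannot be told apart from lane, genome and annotation.

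Reads counted on genes numbered 13934813 to 16826535 in mouse, 12233256 to 14255423 in rat and 7951585 to 10342459 in macaque. All 7 osteocyte markers on the list used were read in every mouse and macaque library and 6 of 7 in the rat libraries. Their summed level was lower in calvaria, at 1650 to 2700 CPM (reads scaled to a library of 1000000) against 8510 to 11400 in mouse tibia, 738 against 8820 in rat and 5130 to 6020 against 8100 to 18000 in macaque. Marrow markers went the other way, at 84000 to 109000 CPM against 49400 to 56800 in mouse and 17100 to 29000 against 3350 to 6480 in macaque. These sums moved with site beside every result below, and their part in it was not tested. In bulk RNA, fewer cells of a type and less RNA per cell cannot be told apart.

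The skull vault forms by ossification within a membrane, from cells of the cranial neural crest and of the head mesoderm. ZIC proteins are zinc finger factors of the neural plate border, neural crest and meninges, FOXC1 and FOXC2 are forkhead factors of mesoderm and neural crest mesenchyme, and TWIST1 is a helix-loop-helix factor that holds back osteoblast differentiation in the sutures. TFAP2A and TFAP2B are AP-2 factors of the neural crest, and ALX4 is a homeobox factor of craniofacial mesenchyme. In people, loss of function of TWIST1 closes sutures early and loss of function of ALX4 leaves openings in the parietal bones. These factors are best known from the embryo. By the methods of the study, the bones sampled here had passed their period of fastest growth. For macaque this rests on the age in years, which the labels give in months.

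Several members are close copies of each other or lie on top of each other, which bears on how their reads can be told apart. In GRCm38 (mm10), Zic1 lies on the minus strand at chr9:91358058-91365810 and Zic4 on the plus strand at chr9:91362413-91389348, and 60 exonic bases are shared by both. Reads were counted without regard to strand, so reads from those bases cannot be assigned to one gene. Reads of 125 bases were used, and the most alike stretches of that length in the coding sequences are shown for a pair of ZIC and a pair of FOXC genes because these are the pairs whose site pattern is compared below. They are written in the direction of the transcript, from GENCODE transcripts, with the bases that differ in capitals. The ZIC stretches lie at chr9:91364165-91364289 on the minus strand and chr9:91379149-91379273 on the plus strand, and the FOXC stretches at chr13:31807607-31807731 and chr8:121116993-121117117, both on the plus strand.
Zic1: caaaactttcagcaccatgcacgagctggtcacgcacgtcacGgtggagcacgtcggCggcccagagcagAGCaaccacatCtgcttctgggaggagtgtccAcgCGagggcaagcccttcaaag
Zic4: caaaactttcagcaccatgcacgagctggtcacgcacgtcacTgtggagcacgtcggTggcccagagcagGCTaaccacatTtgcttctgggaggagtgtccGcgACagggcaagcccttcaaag
Foxc1: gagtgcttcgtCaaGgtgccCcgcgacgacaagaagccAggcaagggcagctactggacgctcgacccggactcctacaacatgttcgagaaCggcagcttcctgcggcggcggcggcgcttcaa
Foxc2: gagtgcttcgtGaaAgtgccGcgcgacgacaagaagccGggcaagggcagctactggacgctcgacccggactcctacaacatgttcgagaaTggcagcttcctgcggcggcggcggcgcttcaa
The ZIC stretches differed at 9 of 125 bases and the FOXC stretches at 5, the longest identical runs being 42 and 53 bases. Every 125-base window of the coding sequences compared therefore differed between the genes of a pair. The most alike windows of Zic1 and Zic2 differed at 8 bases, those of Zic2 and Zic4 at 14 and those of Tfap2a and Tfap2b at 24. No such comparison was made for rat or macaque.

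ZIC genes were read almost only in calvaria in all 3 species. In mouse, ZIC1 had 201 reads in M4 and 35 in M8 and none in M5 or M7. ZIC2 had 271 and 49 reads in calvaria against 2 and 0 in tibia, and ZIC4 had 259 and 25 against 0 and 0. Every calvaria library stood above every tibia library for all of them, although M4 was well above M8. Where no tibia read was seen, the 3 reads that a count of 0 allows over the site were used as its limit, 0.0928 CPM in mouse tibia. Against that limit the observed reads put ZIC1 88.5-fold and ZIC4 107-fold higher in mouse calvaria, with exact 95% intervals starting at 71.4 and 86.1. ZIC2 was 180-fold higher (95% interval 49.4 to 1490). Without M4 these fell to 28.8-fold for ZIC1 and 20.6-fold for ZIC4 (intervals from 22.2 and 15.5). ZIC2 fell to 60.4-fold (15.9 to 513). The limit allows for counting error in the tibia reads alone. The intervals cover counting error at both sites and nothing else.

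**Figure D1:**
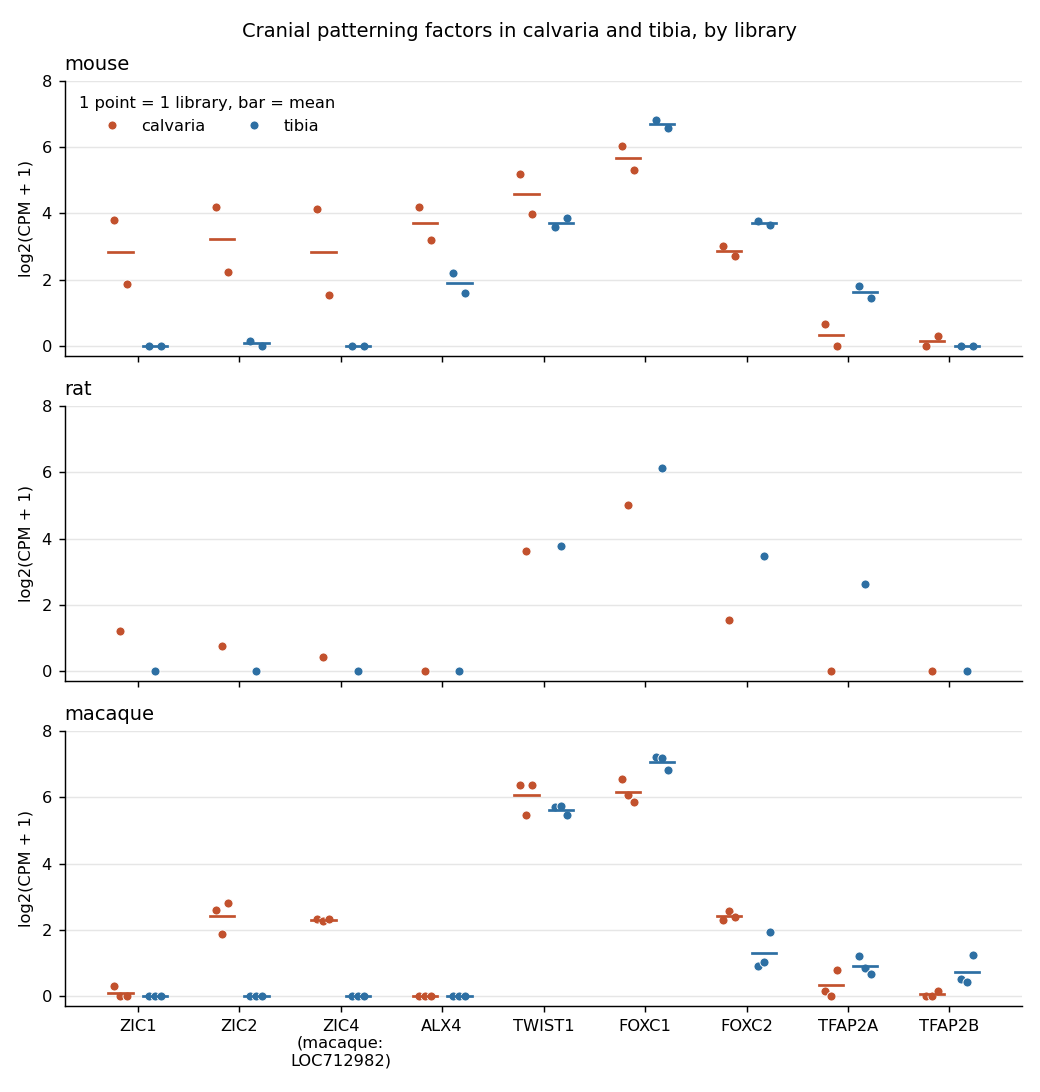
Level of each member in each library as log2(CPM + 1), with calvaria in orange, tibia in blue and bars for the mean of a site where it had more than 1 library. In macaque the ZIC4 position shows LOC712982. The ZIC members sat at or near 0 in every tibia library, while FOXC1 was higher in tibia in all 3 panels.

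In rat calvaria the ZIC reads were few, 19 for ZIC1, 10 for ZIC2 and 5 for ZIC4, and rat tibia had none of them. Against the limit of 3 reads these gave calvaria levels 5.43-fold, 2.86-fold and 1.43-fold higher. The exact 95% intervals of the ratios started at 4, 1.92 and 0.786, so the 5 reads of ZIC4 did not separate the libraries. In macaque, ZIC2 had 42 reads in G1, 21 in G3 and 50 in T1 and none in the tibias. That is 43.3-fold higher in calvaria against the limit (interval from 34.7). LOC712982 had 33, 30 and 33 reads in the same calvariae and none in the tibias, 36.8-fold higher (interval from 29.4). ZIC1 was the exception in the deposited macaque rows, with 2 reads in G1 and none elsewhere, which is under the limit. The paper, however, lists ZIC1 as higher in calvaria in macaque as well as in mouse and rat. The reason for this difference was not tested. The counted exons of ZIC1 add up to 1792 bases in macaque, 2756 in rat and 5664 in mouse.

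Per length, the ZIC genes were low even in calvaria. In CPM per kilobase of counted exon (RPKM), mouse calvaria averaged 1.37 for ZIC1, 3.55 for ZIC2 and 0.891 for ZIC4, and macaque calvaria 1.71 for ZIC2 and 0.944 for LOC712982. FOXC1 averaged 12.9 RPKM in mouse calvaria and 50.4 in macaque calvaria. TWIST1 stood at 15.3 and 53.8 RPKM in the same sites, so FOXC1 and TWIST1 were the most abundant of the members per length in calvaria of both species. In rat calvaria FOXC1 had 7.80 RPKM and TWIST1 7.63, against 0.177 to 0.484 for the ZIC genes. The order of FOXC1 and TWIST1 was not resolved in calvaria, where the SD of FOXC1 and TWIST1 (4.59 and 8.97 RPKM in mouse, 13.0 and 17.6 RPKM in macaque) exceeded the gap between them.

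Each species was fitted on its own with edgeR's quasi-likelihood test on all genes with at least 10 reads over its libraries, and calls used the thresholds of the study, an adjusted p under 0.2 with a change of more than 1.1-fold. The p-values measure the spread between these samples. In macaque ZIC2 was called (log2 fold change 8.34 ± 1.03 SE, n = 3 against 3, adjusted p = 0.00113), as was LOC712982 (8.11 ± 0.988 SE, adjusted p = 0.00107). A fitted fold change against a site without reads depends on the prior count and is no bound. In mouse ZIC1 (log2 fold change 9.90 ± 1.67 SE, n = 2 against 2, adjusted p = 0.367), ZIC2 (7.25 ± 1.25 SE, adjusted p = 0.297) and ZIC4 (10.15 ± 2.09 SE, adjusted p = 0.453) were not called. These genes passed the filter on low counts through calvaria reads alone or nearly alone, so that passing it already meant a difference between the sites.

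The mouse calls depended on the tool, and the paper, which also used edgeR, lists ZIC1 as differentially expressed in mouse. The quasi-likelihood test called 0 of the 8 mouse members tested, of which 6 had an unadjusted p under 0.05, against 0.0166% of all 18041 genes called higher in calvaria and 0.172% called higher in tibia. With edgeR's exact test 4 members were called, all higher in calvaria (ZIC1, ZIC2, ZIC4 and ALX4), where 0.942% of all genes were. DESeq2 called the same 4, where 0.77% of all genes were called higher in calvaria, and FOXC1 higher in tibia, where 1.95% were. The quasi-likelihood test itself called 7 members without M4 (4 higher in calvaria and 3 in tibia), where 20.4% and 23.6% of all genes were called in those directions. It called 8 without M8 (5 and 3), where 9.91% and 9.58% of all genes were, and 0 without M5 or M7. A lone library of a site was assumed to vary like the other site. All 8 tested mouse members had no overlap between the sites, 5 higher in calvaria and 3 in tibia, where 19.7% of all genes stood apart in the first direction and 20.8% in the other. The ZIC genes among the 5 had passed the filter through calvaria reads, so their calls and lack of overlap are no separate support.

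The 2 mouse calvaria libraries were themselves far apart in these genes. M4 exceeded M8 in CPM by 4.82-fold for ZIC1 (95% counting interval 3.35 to 7.11), 4.64-fold for ZIC2 (3.41 to 6.42) and 8.69-fold for ZIC4 (5.76 to 13.7). For TWIST1 the ratio was 2.41, for ALX4 2.14, for FOXC1 1.67 and for FOXC2 1.26. The median over all tested genes was 1.01, and 12% of the 14527 genes with a mean above 1 CPM exceeded 2. So the same library led in all 7 of these members, by unequal amounts. Other lists differed between these libraries too. M4 had 3.98 times the summed suture and periosteum markers of M8, with POSTN at 7100 reads against 937, 3.04 times the meninges markers, 5.33 times the cartilage markers and 5.82 times the limb factors. Single genes carried much of the meninges, cartilage and limb sums: ALDH1A2 (213 reads in M4 against 29 in M8), COL2A1 (909 against 137) and SHOX2 (1157 against 46). Among genes of these lists with more reads in M8 were SLC6A13 (29 against 50), COL10A1 (2 against 6) and HOXA9 (32 against 63). The marrow markers were lower in M4, at 0.774 times those of M8. Their part in the ZIC levels was not tested. The suture and periosteum markers summed to 379 CPM in M8 and to 569 and 664 CPM in the tibias. Most of these sums was CTSK, with 2842 reads in M8, 7193 in M5 and 4667 in M7, and PRRX1, with 1105, 2919 and 2454. In the same order POSTN had 937, 1460 and 1106 reads, GLI1 39, 119 and 61, and AXIN2, higher in M8, had 48, 41 and 38. M8 had ZIC1 at 2.67 CPM, ZIC2 at 3.74 CPM and ZIC4 at 1.91 CPM.

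**Figure D2:**
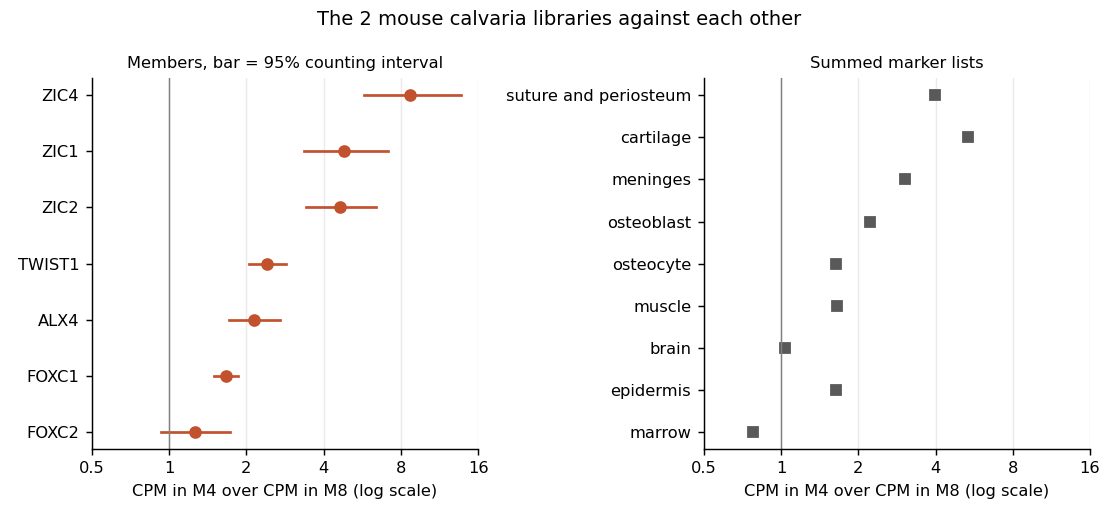
Ratio of CPM in mouse calvaria library M4 to that in M8 on a log axis, for 7 members with their 95% counting interval on the left and for the summed CPM of 9 marker lists on the right. ZIC4 had the highest ratio of the members at 8.69 and FOXC2 the lowest at 1.26, while the lists ran from 0.774 for marrow to 5.33 for cartilage.

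ZIC genes are also expressed in the meninges and the brain, which lie against the inner face of the calvaria, and markers of those tissues were therefore read beside them. In macaque the meninges list summed to 34.3 to 47.6 CPM in calvaria and 52.4 to 68.3 CPM in tibia, most of it CLDN11 (a mean of 38.3 against 53.9 CPM), with SLC22A6 and SLC22A8 at 0 reads in all 6 libraries and no row of PTGDS. No marker of it was called higher in calvaria. Of the brain list in macaque, GFAP, MOG and AQP4 had 0 reads, while SNAP25 had 2, 0 and 12 in calvaria against 0, 1 and 1 in tibia (log2 fold change 2.77, adjusted p = 0.313) and MBP 0, 2 and 3 against 0, 0 and 1. In mouse the meninges list summed to 7.63 and 23.2 CPM in calvaria and 29.7 and 31.6 CPM in tibia. Most of the tibia sum was ALDH1A2, with 490 and 375 reads in tibia against 213 and 29 in calvaria (a mean of 26.7 against 7.92 CPM). The sums therefore chiefly follow this gene. There 3 of the 7 tested meninges genes had higher values in calvaria and none was called: PTGDS, with 65 and 15 reads against 6 and 2 (adjusted p = 0.561), CLDN11, with 32 and 3 against 8 and 3, and SLC6A13, with 29 and 50 against 30 and 22. Of the mouse brain list, which summed to 145 and 151 CPM in calvaria and 209 and 254 CPM in tibia, SNAP25 was read in calvaria alone, with 28 reads in M4 and 2 in M8 (log2 fold change 6.92, adjusted p = 0.628), and MOG had 0 reads. In rat the meninges list summed to 6.66 CPM in calvaria and 2.86 CPM in tibia, and the brain list to 22.7 and 11.8 CPM. There SLC13A4 of the meninges list had 89 reads against 16 and GFAP of the brain list 42 against 2, past the same threshold as the ZIC genes. ALDH1A2 of the meninges list had 1 read against 15, past it toward tibia. The part of these markers in the ZIC reads was not tested in any species. Of the epidermal keratins, KRT5, KRT14 and KRT15 had 0 reads in all mouse and rat libraries. KRT1 had 12 and 5 reads in mouse calvaria against 0 and 2 in tibia and 6 against 19 in rat, and KRT10 had 58 and 31 against 124 and 100 in mouse and 92 against 135 in rat.

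ALX4 was higher in mouse calvaria and was not read in the other species. It had 273 reads in M4 and 107 in M8 against 63 in M5 and 30 in M7, so that the lowest calvaria library stood above both tibias. The pooled ratio was 4.60 (95% counting interval 3.66 to 5.83) and the log2 fold change 2.18 ± 0.518 SE (n = 2 against 2), which the quasi-likelihood test did not call (adjusted p = 0.464). With M8 alone as calvaria the ratio was 2.84 (2.13 to 3.79) and with M4 alone 6.07 (4.78 to 7.77). In rat and macaque ALX4 had 0 reads at both sites, which allows up to 0.210 CPM in rat calvaria and 0.122 CPM in macaque calvaria. Its counted exons span 5205 bases in mouse, 1747 in rat and 1506 in macaque, and whether that bears on the zeros was not tested.

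TWIST1 passed the threshold in no species as tested here, but in macaque it lay close to it. Mouse calvaria had 552 reads in M4 and 192 in M8 and tibia had 196 in each of M5 and M7, or 35.3 and 14.7 CPM against 11.1 and 13.4 CPM. The log2 fold change was 1.03 ± 0.450 SE (adjusted p = 0.664), and M8 lay only just above M7. Rat had 163 reads in calvaria and 155 in tibia, a ratio of 0.902 (95% counting interval 0.720 to 1.13). Macaque calvaria had 673, 342 and 683 reads and macaque tibia 464, 457 and 441, and the groups overlapped because G3 lay at the tibia level. The fit gave 0.51 ± 0.239 SE (adjusted p = 0.217), just outside the threshold. With a block for the assumed pairs G1 with G2, G3 with G4 and T1 with T2, the value was 0.46 and TWIST1 was called (adjusted p = 0.135), although within those pairs G3 was below G4. Without G3 the value was 0.75 and it was also called (adjusted p = 0.0379). In all, 7 of the 18 macaque alternatives called it, with 4 other filters (adjusted p = 0.147 to 0.196) and the letter of the label as a batch (adjusted p = 0.123) beside these.

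FOXC1 was higher in tibia in every species. Mouse calvaria had 1008 and 506 reads and tibia 2003 and 1390, or 51.6 CPM ± 18.3 (SD, n = 2) against 104 CPM ± 13.0 (SD, n = 2). Rat had 443 reads in calvaria and 847 in tibia, and macaque had 773, 532 and 471 in calvaria against 1340, 1259 and 1160 in tibia. In mouse and macaque no library of one site reached the level of the other site. Of all genes, 20.8% in mouse and 14.7% in macaque stood apart in this direction. Rat, with 1 library a site, could not show an overlap. Tibia over calvaria was 1.99 in mouse (95% counting interval 1.87 to 2.12), 2.23 in rat (1.98 to 2.51) and 1.84 in macaque (1.74 to 1.95). FOXC1 was called in macaque (log2 fold change -0.89 ± 0.204 SE, adjusted p = 0.0182) and not in mouse (-1.01 ± 0.305 SE, adjusted p = 0.611), and it did not reach the log2 ratio of 2 used in rat (-1.15). The site effects of mouse and macaque differed by 0.09 ± 0.372 SE on the log2 scale (adjusted p = 0.938), and this miss of the threshold does not show that the effects were equal.

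FOXC2, the closest relative of FOXC1, went opposite ways. It was lower in calvaria in both rodents, with 110 and 73 reads against 225 and 170 in mouse and 27 against 123 in rat. In macaque it was higher in calvaria, with 32, 39 and 35 reads against 8, 9 and 29. The sites did not overlap in either replicated species, but tibia T2, at 2.82 CPM, was closer to the calvariae (3.86 to 4.90 CPM) than to tibias G2 and G4 (0.875 and 1.03 CPM). The log2 fold change was -0.95 ± 0.292 SE in mouse (adjusted p = 0.619) and 1.44 ± 0.520 SE in macaque (adjusted p = 0.110, called), and the rat log2 ratio was -2.37. In macaque the FOXC2 call was lost without tibia G2, tibia G4, calvaria G3 or calvaria T1 (1.16 to 1.47, adjusted p = 0.203 to 0.312).

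**Figure D3:**
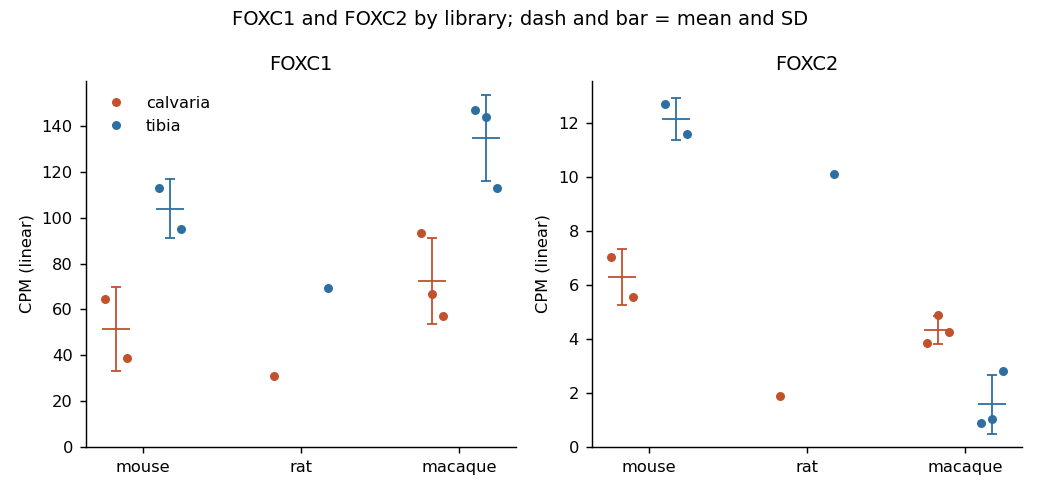
CPM on a linear axis of FOXC1 on the left and FOXC2 on the right in each calvaria and tibia library, with the mean and SD of sites with replicates. FOXC1 was higher in tibia in all 3 species, while FOXC2 was higher in tibia in mouse and rat and higher in calvaria in macaque.

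The difference between the mouse and macaque site effects of FOXC2 was tested in 1 fit over the 10 libraries. It was 2.35 ± 0.688 SE on the log2 scale (adjusted p = 0.147) and was called, where 6.94% of 7175 genes were called in either direction. It was the only one of the 5 members tested in both species to be called. The other estimates were 1.58 ± 1.89 SE for ZIC2, 1.12 ± 1.72 SE for TFAP2A and -0.55 ± 0.518 SE for TWIST1, with adjusted p-values of 0.753, 0.811 and 0.670. The FOXC2 call was lost in 7 of the 10 fits that left out 1 library, those without M5, M7, G1, G2, G3, G4 or T1, with values of 2.07 to 2.47. The number of FOXC1 reads for each FOXC2 read was 6.93 to 9.16 in the mouse libraries of both sites, and in macaque 13.5 to 24.2 in calvaria against 40.0 to 168 in tibia. In mouse, cartilage markers summed to 12.4 and 65.9 CPM in calvaria against 496 and 610 CPM in tibia, while in macaque they stood at 10.6 to 11.9 against 5.82 to 10.2 CPM. The cartilage collagen COL2A1 had its higher value at the same site as FOXC2 in all 3 species, without being called in mouse. It had 909 and 137 reads in mouse calvaria against 10478 and 6963 in tibia, and 0 against 41 in rat. In macaque it had 43, 41 and 80 reads in calvaria against 9, 2 and 46 in tibia, T2 holding the 46, and was called higher in calvaria (log2 fold change 1.78, adjusted p = 0.147). The rest of the cartilage list was mixed. Of the genes tested, 1 of 5 in mouse, 1 of 3 in rat and 2 of 4 in macaque (LOC rows renamed) were higher in calvaria. MATN3 and COL10A1 were lower in macaque calvaria (log2 fold change -0.60 each, not called), and MATN3 had 3 reads against 0 in rat. The part of cartilage markers in the FOXC1 and FOXC2 values was not tested.

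The AP-2 genes were read at low levels, and more in tibia. TFAP2A had 9 reads in M4 and 0 in M8 against 44 and 25 in mouse tibia, and 0 in rat calvaria against 64 in rat tibia. Against the limit of 3 reads, the observed rat reads put it 24.9-fold higher in tibia (exact counting interval from 19.6). In macaque TFAP2A had 1, 0 and 6 reads in calvaria and 12, 7 and 6 in tibia, and T1 lay within the tibia range in CPM. The quasi-likelihood test called TFAP2A in neither mouse (log2 fold change -2.78 ± 1.23 SE, adjusted p = 0.665) nor macaque (-1.61 ± 1.18 SE, adjusted p = 0.446). In mouse its exons share 380, 265 and 73 bases with the antisense transcripts Gm26688, Gm47061 and Gm47067 at chr13:40715302-40738376 (GRCm38), and unstranded reads from those bases cannot be told apart. Rat tibia also held muscle markers at 805 CPM against 6.10 CPM in calvaria, and their part in the rat TFAP2A and FOXC2 values was not tested.

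TFAP2B had 3 reads in mouse, all in calvaria M8, and 0 in rat. In macaque it had 0, 0 and 1 reads in calvaria and 4, 3 and 14 in tibia, with T2 well above the other tibias. It passed the filter through tibia reads and was called (log2 fold change -3.74 ± 1.44 SE, adjusted p = 0.131), on 22 reads in all. Without T2 fewer than 10 reads remained and it was not tested. The call was also lost without calvaria G1, calvaria G3 or tibia G2, with values of -3.28, -3.30 and -3.98 (adjusted p = 0.212 to 0.272).

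**Figure D4:**
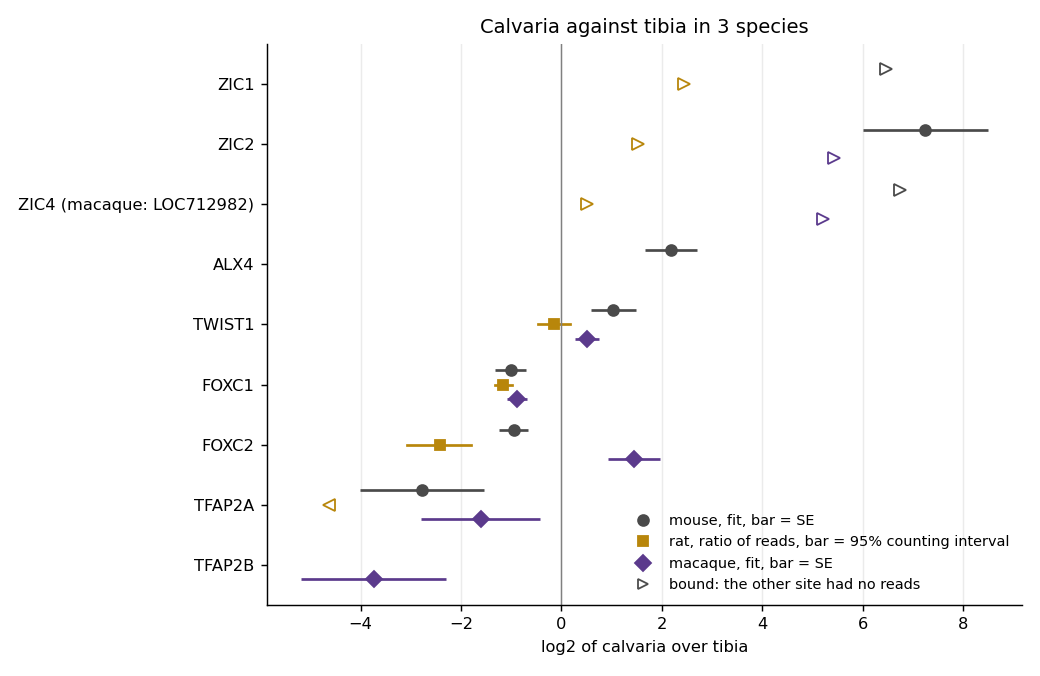
Calvaria over tibia on the log2 scale for each member, with edgeR fold changes and their SE for mouse (circles) and macaque (diamonds). Rat shows ratios of reads without added reads and with 95% counting intervals (squares). Open triangles mark members with no reads at one site, drawn at the observed reads of the other site over the limit of 3 reads. The ZIC genes lay to the right wherever they are drawn, FOXC1 lay to the left in all 3, and FOXC2 lay to the left in the rodents and to the right in macaque.

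Over the members, 4 of the 6 tested in macaque were called, ZIC2 and FOXC2 higher in calvaria and FOXC1 and TFAP2B higher in tibia, where 12.5% and 11.8% of all 15377 genes were called in those directions (1923 and 1812 genes). With library size alone in place of TMM factors all log2 values moved by a median of -0.20, and the split was 1345 to 3105, with the same 4 members called in the same directions. Sites did not overlap for ZIC2 and FOXC2 in the first direction, where 15.4% of all genes stood apart, or for FOXC1 and TFAP2B in the other, where 14.7% did. ZIC2 (113 reads against 0) and LOC712982 (96 against 0) passed the filter through calvaria reads alone, and TFAP2B (1 against 21) through tibia reads nearly alone. For them passing already meant a difference, so their calls and lack of overlap are no separate support. In rat, 3 of the 7 members with reads were past a log2 ratio of 2 in calvaria (ZIC1, ZIC2 and ZIC4), against 1.55% of genes, and 2 in tibia (FOXC2 and TFAP2A), against 8.14%. These shares are over 19234 genes with at least 1 read, and a gene with 1 read could not pass. ZIC4 passed on 5 reads against 0, and with 5 reads added ZIC2 and ZIC4 did not pass (1.36 and 0.78). The median log2 fold change of the members was 1.61 in mouse and -0.19 in macaque, beside 0.05 and 0.00 over all genes. With LOC712982 counted as ZIC4 the macaque median turned to 0.51 over 7 genes, 3 called higher in calvaria and 2 in tibia. The median rat log2 ratio was -0.15 beside -0.29. So the 9 factors did not move together. The ZIC genes leaned to calvaria, FOXC1 and TFAP2A to tibia, and FOXC2 to tibia in the rodents and to calvaria in macaque. In mouse none of these was called by the quasi-likelihood test.

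Other factors of head mesenchyme were counted from a list. Of its 30 genes, 23 were tested in mouse and only EN1, a homeobox gene of head mesenchyme, was called higher in calvaria. It had 171 and 102 reads against 9 and 7 (log2 fold change 4.22 ± 0.444 SE, adjusted p = 0.123), and rat had 97 against 7. The macaque EN1 row, printed under a LOC symbol, had 0 reads. Of the 13 tested in macaque, 4 were called higher in tibia and none higher in calvaria. They were DLX5, a homeobox factor of osteoblasts (log2 fold change -1.18 ± 0.161 SE, adjusted p = 0.00104), the mesenchymal factor PRRX1 (-0.60 ± 0.170 SE, adjusted p = 0.0473), DLX3 (-1.01 ± 0.293 SE, adjusted p = 0.0510) and the zinc finger factor ZEB2 (-0.46 ± 0.195 SE, adjusted p = 0.167). With LOC rows renamed 19 were tested and 6 called higher in tibia, among them MSX1 (-0.79 ± 0.189 SE, adjusted p = 0.0225). In rat 1 of 20 was past the threshold in calvaria (EN1) and 6 in tibia, DLX3 and DLX5 among them.

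Limb patterning factors, chiefly HOX genes, gave the opposite picture to the ZIC genes. Of 14 tested in mouse, 6 were called higher in tibia, as were 6 of 6 in macaque, and 9 of 10 in rat were past the threshold in tibia. None of those tested was higher in calvaria in any species. Their median log2 value was -6.00 in mouse, -4.83 in rat and -5.46 in macaque.

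The symbols whose pattern was most like a member's were sought among 6432 symbols with at least 10 reads in each species, by Pearson's r of log2(CPM + 1) over the 12 libraries after centring within species. The points share sites and libraries, so r is a description. ZIC2 was followed by NR2F1 (r = 0.925), LSM3 (0.917) and MEIS2 (0.910). FOXC1 was followed by GPR176 (0.965), ZNHIT6 (0.963) and SERINC1 (0.961), and FOXC2 by CHST11 (0.956), SLC45A3 (0.952) and SMARCE1 (0.934). The likeness was weakest for TWIST1, with KIF5C (0.907), FOXP2 (0.890) and ITGB1BP2 (0.847), and strongest for TFAP2A, with SWAP70 (0.970), PLEKHH3 (0.964) and GRIP2 (0.963). The remaining members had too few reads in at least 1 species.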

How the data were processed

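Reads of poly(A)+ RNA were mapped by the authors, with HISAT2 2.0.5 according to the methods of the study and with BWA 0.7.10-r789 according to the submitters' processing notes, to mm10, rn6 and the MacaM assembly, and counted with HTSeq on merged exons without regard to strand. The deposited count of each gene in each library was used as the authors gave it. A normalized signal that the authors deposited beside it equals the count times 1 constant per library and was not used. Rows naming no gene held 0.00261% to 0.0663% of the reads and were left out. Rows were joined by upper-case symbol, and repeats of a symbol were summed. CPM and RPKM values were computed here, in mouse and macaque with TMM factors (0.884 to 1.12) and in rat with the library total.

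Mouse and macaque were each fitted with edgeR 4.0.16 in R 4.3.3 (estimateDisp, glmQLFit, glmQLFTest, Benjamini-Hochberg adjustment over all genes tested). SE is the size of the log2 fold change divided by the square root of F. The rat ratio had 1 read added to each count. The macaque deviations from the site means correlated over 9142 genes with r of 0.291 (G1, G2), 0.357 (G3, G4) and 0.537 (T1, T2), while pairs across them had r of -0.453 to 0.141, and genes are not independent. In mouse this check was uninformative. Of 29600 macaque rows 17111 carried LOC symbols, and 5939 of these received a symbol through RefSeq in 1 alternative. Mouse positions are those of GENCODE vM21. Other cranial factors were named by a rule, per species and direction up to 4 called genes with the smallest p. Relatives of the members that meet the same rule are not reported here. Alternatives were DESeq2 1.42.0, edgeR's exact test, other scalings, filters, thresholds and pairings, and fits without each library. The steps were tested on simulated data. The members, the lists and the tests were chosen with earlier results of these data known.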

Additional observations from a re-analysis of the deposited data

Results flagged for a closer look

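FOXC2 stood out because its site effect was called as different between 2 species under the same contrast. The macaque effect minus the mouse effect was 2.35 ± 0.688 SE on the log2 scale (edgeR's quasi-likelihood test of the interaction, adjusted p = 0.147), from -0.95 in mouse, not called there, and 1.44 in macaque. The interaction call was lost without macaque library G1, G2, G3, G4 or T1, with values of 2.07 to 2.43. Both mouse calvaria libraries lay below both tibias, and all 3 macaque calvariae lay above all 3 tibias. Species cannot be told apart from lane, genome and annotation in this design.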

How the results depend on the processing

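Wherever an alternative gave a member a value, its direction within the species was that of the main result, except for rat TWIST1, whose log2 ratio was 0.14 with TMM factors. Stricter filters left some members without a value, such as mouse ZIC1, ZIC2, ZIC4 and TFAP2A where a read in every library was required. The mouse calls were the least settled: against 34 genes and 0 members, DESeq2 called 490 genes and 5 members, edgeR's exact test 595 and 4, and a filter of at least 1 read 510 and 5. Requiring a read in every library gave 14 genes, symbols read in all 3 species gave 20, and a false discovery rate under 0.05 gave 4. A replicate block for the assumed mouse pairs (M4 with M5, M7 with M8) gave 219 genes and 4 members and the other pairing 211 and 3. The mouse libraries share no number in the labels, and the pairing there was not checked by the data. Without 1 library the mouse counts ran from 3 to 7647 genes and from 0 to 8 members: 7 members without M4, 8 without M8 and 0 without either tibia. The cause was not tested.

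In macaque, FDR under 0.05 left 1474 genes and 2 members (ZIC2 and FOXC1), and symbols read in all 3 species gave 2136 genes. Without 1 library 1898 to 5098 genes and 2 to 3 members were called, and ZIC2, FOXC1 and LOC712982 were called in each of those fits. The replicate block changed no member's call in macaque but that of TWIST1, which 4 filters, the label letter as a batch and leaving out G3 changed as well. In rat, 5 added reads gave 690 genes and 3 members (ZIC2 and ZIC4 were lost), and a log2 threshold of 1 gave 6072 genes. The interaction called 32 to 1151 genes and 0 to 1 members without 1 library. Its values ran from -0.23 to 0.54 for FOXC1, -0.88 to 5.86 for TFAP2A, -1.05 to 0.25 for TWIST1 and -1.05 to 3.03 for ZIC2, and none of these estimates was called with all libraries. ZIC1 in macaque, TFAP2B in the rodents and ZIC4 in rat had 5 reads or fewer in each library.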
